A study of Ictidomys tridecemlineatus with 15 samples.

Results

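Late-stage neurogenic retinal progenitor cells (late-stage N. RPCs) of the 13-lined ground squirrel (13LGS), a diurnal rodent with a cone-rich retina, were followed from birth to the end of neurogenesis. The cells are those that the deposited annotation calls Late_NG at postnatal day 1 (P1), P4, P8, P12 and P17. They numbered 1462 of the 53394 cells of the series, and of 28707 cells in the same 8 libraries. Whole retinas were profiled by droplet single-cell RNA-Seq without any treatment or genetic change, from captive-bred litters. A library is a time point plus the suffix of the cell name, and the letters a and b name libraries of the same time point. P4 and P17 had 1 library, and P1, P8 and P12 had 2 each. The cell names hold 2 suffixes for P1 while the labels list 1 sample, so each result was also computed without P1. Nothing in the labels says whether libraries of the same time point came from separate animals, so p-values measure the spread between libraries, which may be technical.

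Primary RPCs divide and self-renew, and are kept in that state by Notch signalling. N. RPCs have begun to leave it: they express proneural transcription factors, divide a last time and give rise to postmitotic precursors. Late in retinal development N. RPCs give rise to photoreceptors, bipolar cells and the last amacrine cells, while Müller glia arise directly from late-stage primary RPCs. Photoreceptor precursors are the postmitotic cells that have started toward a cone or rod fate.

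Hes6, Olig2 and Btg2 were taken as markers of these cells, but the label could not be checked against these markers. The matrix has 34181 gene rows and the list of names has 30265 lines without row numbers, so names are not paired with rows. Genes are therefore given by their row in the matrix, counted from 1. In their place, lists of 50 rows were taken that are most selective for a type in libraries holding none of the cells described: bipolar, Müller glia, cone, rod and amacrine rows from P21, and early-stage primary RPC, early-stage N. RPC, photoreceptor precursor, ganglion cell and horizontal cell rows from the embryonic libraries. Selectivity differed between lists: the median ratio to the next type was 65.8 for Müller glia and 6.80 for bipolar rows, but about 1.5 for early-stage primary RPC and 1.33 for early-stage N. RPC rows. The early-stage N. RPC and photoreceptor precursor lists were added after the data had been seen. In both, late-stage N. RPCs and late-stage primary RPCs were left out of the types with which a row was compared. A row of these lists could therefore be as high in late-stage N. RPCs.

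The number of late-stage N. RPCs was 249 in P1a, 203 in P1b, 393 in P4, 289 in P8a, 33 in P8b, 127 in P12a, 117 in P12b and 51 in P17. The median unique molecular identifier (UMI) count, a count of captured mRNA molecules, ranged from 1373 per cell in P4 to 4769 per cell in P12b. Summed over cells, the libraries gave between 84310 UMIs (P8b) and 874828 UMIs (P1a). P8b therefore has the least precise levels. Among all libraries, 362 cell barcodes occurred in more than 1 library, and 22 of the late-stage N. RPCs (1.5%) carried such a barcode.

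Late-stage N. RPCs made up 7.81% of the cells in P1a, 5.44% in P1b, 10.1% in P4, 9.59% in P8a, 2.41% in P8b, 2.98% in P12a, 2.96% in P12b and 0.966% in P17. The 95% Wilson intervals, which cover counting error only, were 9.15% to 11% in P4 and 0.736% to 1.27% in P17. At P21 none of 5057 cells carried the label, which allows a share of up to 0.0593%. The fall with age did not pass the test over 8 libraries (Spearman's rho = -0.67, exact permutation p = 0.081, adjusted p = 0.133; Pearson's r = -0.68, exact permutation p = 0.0677, adjusted p = 0.0947; two-sided, 7 relations tested). Without P17 and P1a, the libraries farthest from the median age, r was -0.50. The libraries of P8 differed, at 9.59% and 2.41%, and photoreceptor precursors were 669 of the 1369 cells of P8b against 157 of 3012 in P8a.

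The balance between neurogenic and primary progenitors changed in 1 direction. N. RPCs were 18.7% of late-stage progenitors in P1a, 19.0% in P1b, 22.2% in P4, 46.5% in P8a, 39.8% in P8b, 61.1% in P12a, 62.9% in P12b and 87.9% in P17. All 3 libraries of P1 and P4 lay below all 5 later libraries, and P17 lay above the rest. The share rose with age (rho = 0.98, exact permutation p = 0.000397, adjusted p = 0.00278; r = 0.99, exact permutation p = 0.000198, adjusted p = 0.00139; n = 8 libraries, two-sided), and r was 0.98 without P17 and P1a. It also rose without P1 (rho = 0.97, exact permutation p = 0.0111). In cells, there were 4.35 late-stage primary RPCs for each late-stage N. RPC in P1a and 0.137 in P17, where 7 primary RPCs were left.

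**Figure D1:**
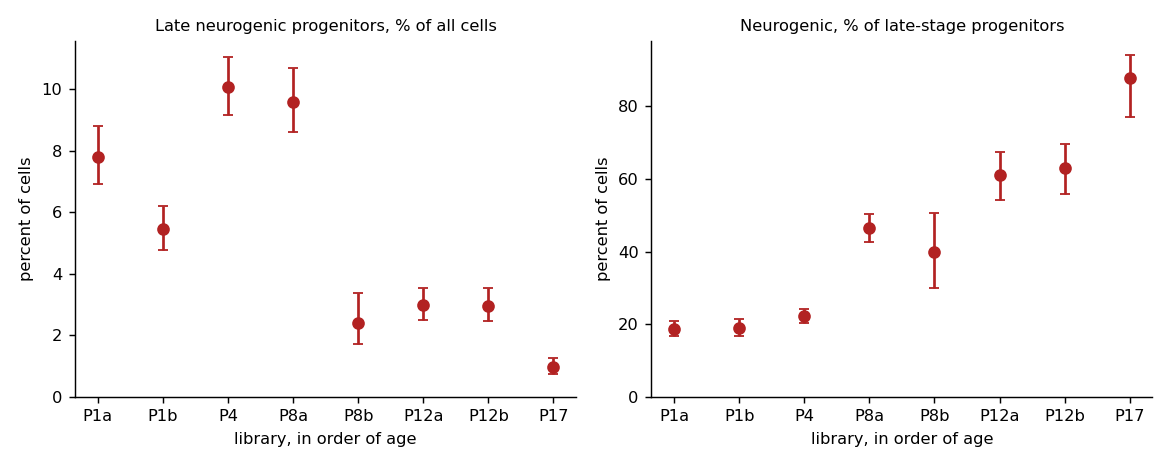
Share of late-stage neurogenic progenitors among all cells (left) and among late-stage neurogenic plus primary progenitors (right), in percent, for each of the 8 libraries in order of age; bars are 95% Wilson intervals. The right-hand share climbs from 18.7% in P1a to 87.9% in P17, while the left-hand share is highest in P4 and P8a.

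N. RPCs had slightly fewer UMIs than primary RPCs of the same library in 5 of 7 libraries. The mean log2 ratio of the medians was -0.14 ± 0.17 (SD, n = 7), which did not pass the exact permutation test that flips the signs of the ratios (two-sided p = 0.109). With means in place of medians the ratio was -0.18, lower in 7 of 7 libraries (exact sign-flip permutation p = 0.0156).

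Rows selective for bipolar cells, the interneurons between photoreceptors and ganglion cells, became more abundant in late-stage N. RPCs with age. Their summed level, in counts per 1000000 UMIs (CPM), was 983 in P1a, 969 in P1b, 2194 in P4, 4036 in P8a, 3475 in P8b, 5962 in P12a, 5470 in P12b and 7210 in P17. Ganglion cells of the same libraries ranged from 1093 to 1682 CPM. They are given for comparison and not as the level of free RNA, since primary RPCs lay below them in every library with both types except P12a. Late-stage N. RPCs were below the ganglion cells at P1 and above them in the 6 later libraries. Bipolar cells themselves held 11637 to 25858 CPM from P8 on, and their number in a library rose with age as well, with 444 cells in P8a, 96 in P8b, 987 in P12a, 1273 in P12b and 2096 in P17. Their part in the level of N. RPCs, as doublets or free RNA, was not tested. Photoreceptor precursors held more of these rows than N. RPCs in 7 of 7 libraries, with 2394 CPM in P1a, 2265 in P1b, 2337 in P4, 5080 in P8a, 3501 in P8b, 9605 in P12a and 8977 in P12b, and were also higher at P12 than at P1. N. RPCs were above late-stage primary RPCs in 7 of 7 libraries, by a mean log2 ratio of 1.69 ± 0.55 (SD, n = 7 libraries). The primary RPCs were higher from P8 on as well. They held 462, 409 and 587 CPM in P1a, P1b and P4. At P8 they held 1005 (P8a) and 1641 CPM (P8b), and at P12 1507 (P12a) and 958 CPM (P12b). From P1a to P17, amacrine cells went from 1164 to 2400 CPM and horizontal cells from 1243 to 2661 CPM.

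A single row carried much of this level. Row 20600, which is also among the photoreceptor precursor rows, held between 25.6% (P8b) and 61.3% (P4) of it. Without row 20600, a choice made after the data had been seen, the other 49 rows summed to 436 CPM in P1a, 392 in P1b, 848 in P4, 2086 in P8a, 2586 in P8b, 2818 in P12a, 2706 in P12b and 4369 in P17. All 5 libraries from P8 on lay above the 3 libraries of P1 and P4. The mean log2 ratio to primary RPCs was then 0.89 ± 0.56 (SD, n = 7), with the lowest library at 0.10. Against ganglion cells, N. RPCs were then higher in 5 of 8 libraries, those from P8 on, and lower at P1 and P4. The mean log2 ratio to ganglion cells was 0.17 ± 1.17 (SD, n = 8), with the lowest library at -1.63.

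The level was also counted per cell. With each cell thinned to 1000 UMIs, the share of N. RPCs with at least 5 bipolar UMIs was 3.27% in P1a, 1.48% in P1b, 16.0% in P4, 45% in P8a, 39.4% in P8b, 66.4% in P12a, 55.6% in P12b and 80.9% in P17. The median N. RPC had 1 such UMI in P1a and 7 in P17, while the median ganglion cell had 1 in every library. The 6 libraries from P4 on lay above both libraries of P1. Without row 20600 the share of cells with at least 5 was 0.408% in P1a and 48.9% in P17. At most 4.35% of ganglion cells reached 5 bipolar UMIs in any library, with row 20600 included.

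Photoreceptor precursor rows were higher in late-stage N. RPCs than in primary RPCs in the 7 libraries with both types, P1 to P12. Their summed level was 5313 CPM in P1a, 6189 in P1b, 9215 in P4, 9273 in P8a, 7757 in P8b, 11605 in P12a, 10508 in P12b and 10969 in P17, against 2462 to 4329 CPM in primary RPCs. The mean log2 ratio to primary RPCs was 1.32 ± 0.31 (SD, n = 7, higher in 7 of 7), and 1.10 ± 0.16 without row 20600. The precursors themselves held 9171 to 21858 CPM and lay above the N. RPCs in 7 of 7 libraries. Rows selective for mature cones stood at 1049 to 2111 CPM in N. RPCs, against 1294 to 1756 CPM in ganglion cells and 2801 to 7698 CPM in precursors. In P8b the N. RPCs held 2111 CPM, between ganglion cells (1478 CPM) and precursors (2801 CPM). Cone rows were above primary RPCs in 6 of 7 libraries (mean log2 ratio 0.21 ± 0.30, SD). The comparison with ganglion cells moved with list size. N. RPCs were higher in 1 of 8 libraries with 50 rows, in 8 of 8 with 20 rows and in 7 of 8 with 100 rows.

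Rows of the glial and primary progenitor state were lower. Müller glia rows, which late-stage primary RPCs share with the glia they form, summed to 1104 to 3736 CPM in N. RPCs and 4148 to 9224 CPM in primary RPCs, a mean log2 ratio of -1.26 ± 0.85 (SD, n = 7, lower in 7 of 7). Early-stage primary RPC rows were also lower in 7 of 7 libraries, by a mean log2 ratio of -0.75 ± 0.17 (SD, n = 7). Amacrine rows (-0.06), rod rows (-0.06), horizontal cell rows (0.01) and early-stage N. RPC rows (-0.06) had mean log2 ratios near 0 with libraries on both sides. P8b stood apart on amacrine rows, at 2099 CPM against 528 to 1018 CPM in the other libraries of N. RPCs. Ganglion cell rows were higher than in primary RPCs in 7 of 7 libraries, by a mean log2 ratio of 0.38 ± 0.17 (SD, n = 7), at 1684 to 4167 CPM against 31848 to 47742 CPM in ganglion cells.

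**Figure D2:**
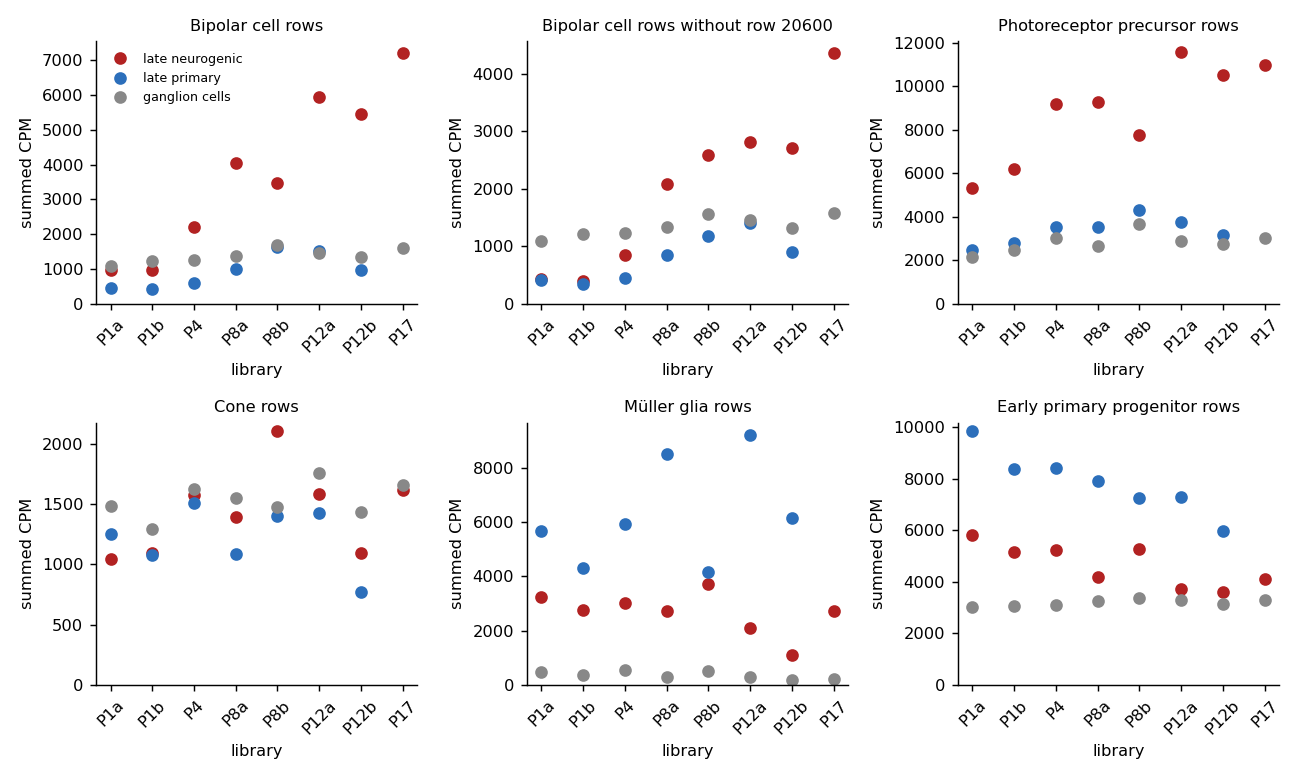
Summed level, in CPM, of 6 sets of type-selective gene rows in late neurogenic progenitors, late primary progenitors and ganglion cells; each point is 1 library, in order of age, and each vertical axis starts at 0. Bipolar rows climb from 983 CPM in P1a to 7210 CPM in P17, and without row 20600 from 436 to 4369 CPM, while cone rows stay between 1049 and 2111 CPM.

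Across all rows, late libraries (P12 and P17, n = 3) were compared with early libraries (P1 and P4, n = 3) in late-stage N. RPCs, using edgeR's quasi-likelihood test with Benjamini-Hochberg adjustment on UMI sums per library. Of 8384 rows tested, 820 (9.78%) passed an adjusted p of 0.05: 375 rose (4.47%) and 445 fell (5.31%). Without P1 the count was 284, and without P1a or P12b alone it was 503 or 498. Among bipolar rows 31 of 50 could be tested, of which 21 rose and 1 fell, with a median log2 fold change of 2.74 beside 0.01 over all rows. The filter keeps a low row only through the group in which it is high, so these counts are descriptions. Among early-stage primary RPC rows 16 of 47 fell and 1 rose (median -0.79), and among early-stage N. RPC rows 14 of 50 fell and 2 rose (median -0.58). Photoreceptor precursor rows were divided, with 8 of 48 higher and 9 lower (median 0.12).

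Row 15507 was among those that rose most. It had 1.15, 0 and 0 CPM in P1a, P1b and P4, 44.2 and 10.9 CPM in P8a and P8b, and 73.3, 41.7 and 77.2 CPM in P12a, P12b and P17. The early libraries together held 1 UMI, and the pooled ratio was 115 (95% counting interval 19.8 to 4631). In other types its highest level was 51.1 CPM, in Müller glia. Row 23718 behaved likewise, with at most 1.65 CPM in the early libraries, 10.7 and 10.9 CPM in P8a and P8b, and 45.4, 65.6 and 77.2 CPM in P12a, P12b and P17. Its pooled ratio was 124 (21.3 to 4961), again against 1 UMI, and no other type examined exceeded 18.3 CPM. Adjusted p was 1.7e-05 for row 15507 and 1.41e-05 for row 23718.

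The rows that fell most were not seen at all in the late libraries. Row 25005 had 405, 418 and 362 CPM in P1a, P1b and P4, 47.3 and 197 CPM in P8a and P8b, and 0 UMIs in P12a, P12b and P17. With a limit of 3 UMIs over the late group it was at least 137-fold lower (adjusted p = 7.65e-07), or at least 61.2-fold without P12b. Primary RPCs held it too, at 1713 CPM in P1a and 1467 CPM in P8b, but 33.9 CPM in P8a and 0 CPM in their lowest library. Over the libraries, row 25005 ranged from 0 to 243 CPM in photoreceptor precursors. In amacrine cells it ranged from 1.53 to 190 CPM, and in ganglion cells from 0.699 to 98.2 CPM. Row 7145 is on the early-stage N. RPC list, but early-stage N. RPCs of P1 and P4 held it at only 13.3 to 39.1 CPM. In late-stage N. RPCs it had 493, 120 and 84.4 CPM in P1a, P1b and P4, 1.53 and 87.6 CPM in P8a and P8b, and 0 UMIs later. It was at least 89.6-fold lower (adjusted p = 0.00035), at least 35.2-fold without P1a and at least 40.2-fold without P12b. Primary RPCs showed the same fall, with 356, 124 and 107 CPM in P1a, P1b and P4, 3.28 and 94.0 CPM at P8 and 0 UMIs at P12. On both rows P8b was above P8a.

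**Figure D3:**
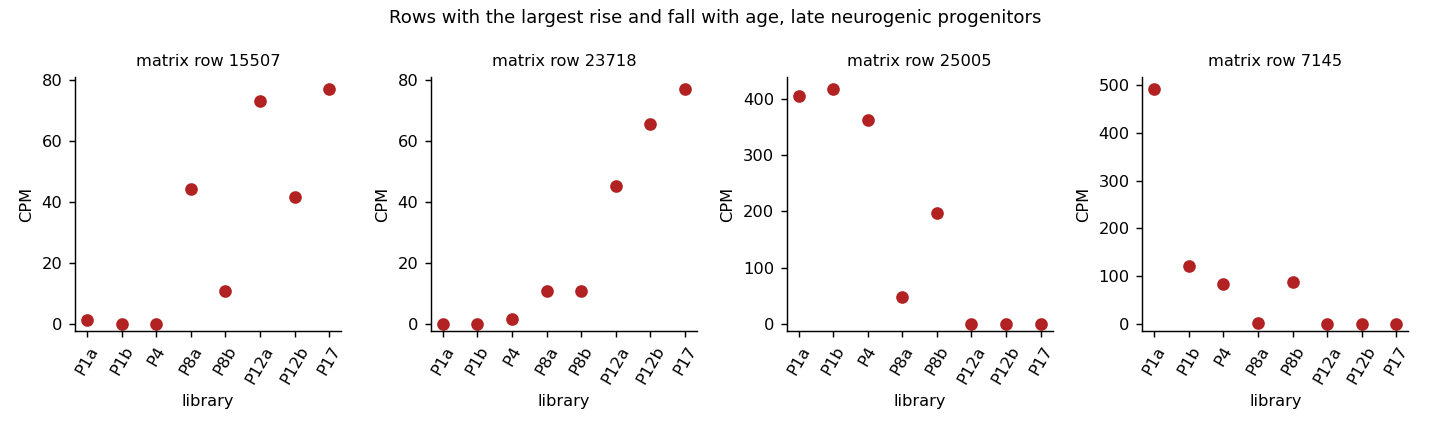
Level in CPM of the 2 matrix rows that rose most and the 2 that fell most with postnatal age in late neurogenic progenitors; each point is 1 library, in order of age. Rows 25005 and 7145 are at 0 in P12a, P12b and P17, and rows 15507 and 23718 are at or near 0 in P1a, P1b and P4.

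The P8 libraries did not enter the contrast of late with early, and lay between the groups. In P8a, 70.1% of the 375 rising rows and 67.6% of the 445 falling rows were nearer the late mean than the early mean. In P8b these shares were 50.9% and 46.3%.

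The change with age was compared with that in late-stage primary RPCs, in the 7 libraries with at least 10 cells of both types. P17 did not enter, so the late libraries were those of P12 alone. Of 9366 rows, 142 (1.52%) differed by edgeR's quasi-likelihood test of the interaction: 66 (0.705%) with a higher and 76 (0.811%) with a lower log2 change in N. RPCs. Leaving out a single library gave 42 rows (without P12b), 79 (without P1b), 94 (without P1a), 303 (without P8b) or 337 (without P8a), so the count rests on few libraries. Among bipolar rows 4 of 32 changed more in N. RPCs and none less (median difference of log2 changes 0.99, beside 0.02 over all rows). Among Müller glia rows 9 of 36 differed, all toward primary RPCs (median -1.06).

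Row 6326, a photoreceptor precursor row, had 8.0, 17.2, 27.9, 86.6, 51.7, 188 and 125 CPM in N. RPCs of P1a, P1b, P4, P8a, P8b, P12a and P12b, while primary RPCs never exceeded 17.7 CPM. The difference of log2 changes was 3.95 ± 0.65 (SE, adjusted p = 0.000152 by edgeR), with 4 UMIs in the late primary RPCs. Bipolar cells held row 6326 at 162 to 257 CPM and cones at 126 to 218 CPM. It stood at 63.4 to 212 CPM in photoreceptor precursors and 7.90 to 235 CPM in amacrine cells. Row 18972, which is on the ganglion cell list, had 10.3, 7.16 and 6.56 CPM in N. RPCs of P1a, P1b and P4, 91.2 and 10.3 CPM at P8 and 438 and 365 CPM at P12, against at most 20.4 CPM in primary RPCs (difference 3.83 ± 0.58, SE, adjusted p = 4.15e-05 by edgeR, and 0.0921 without P1). Ganglion cells held it at 35.1 to 321 CPM. Both rows were higher in N. RPCs of P12 than in any N. RPC library of P1 and P4.

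Row 4972, an early-stage N. RPC row, moved the other way. It had 305, 506 and 326 CPM in N. RPCs of P1a, P1b and P4, 147 and 258 CPM at P8, and 20.8 and 11.7 CPM at P12. Primary RPCs held 293, 296 and 326 CPM at P1 and P4 and still 326 and 253 CPM at P12, and the difference of log2 changes was -4.50 ± 0.48 (SE, adjusted p = 5.24e-08 by edgeR). Row 34098 fell from 17.2 to 36.6 CPM at P1 and P4 to 0 and 1.95 CPM at P12 in N. RPCs, with 38.3 to 119 CPM in primary RPCs throughout. Its difference of -4.36 ± 0.90 (SE, adjusted p = 0.0036 by edgeR) rests on 1 UMI in the N. RPCs of P12, and adjusted p was 0.123 by DESeq2, 0.0536 without P1, 0.0909 without P12a and 0.137 without P12b.

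**Figure D4:**
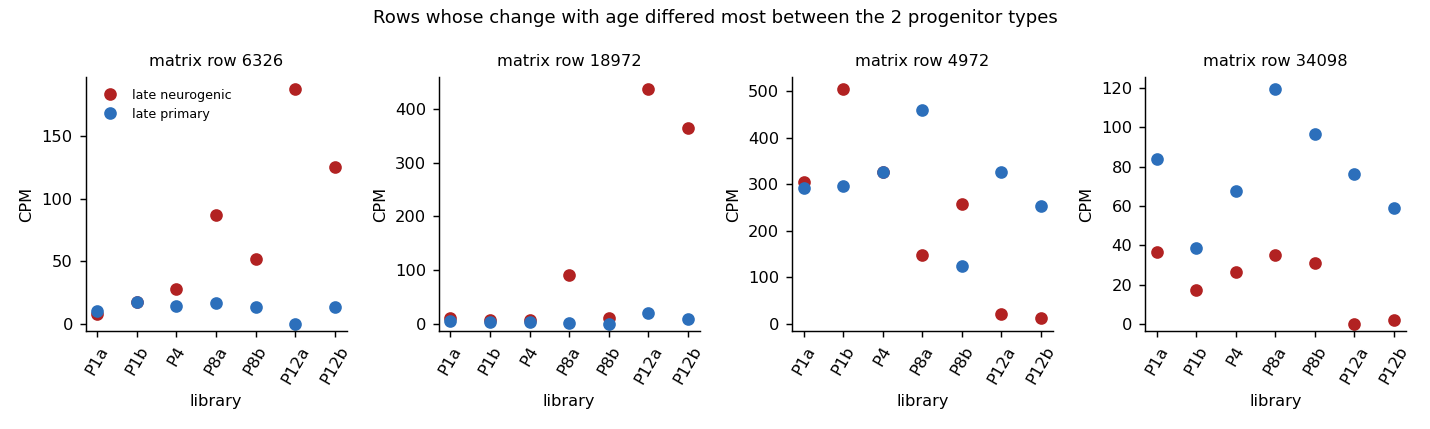
Level in CPM of the 4 matrix rows whose change with age differed most between late neurogenic and late primary progenitors, in each of the 7 libraries with both types. Rows 6326 and 18972 climb in neurogenic progenitors while primary progenitors stay at or below 20.4 CPM, and row 4972 falls to 11.7 CPM in neurogenic progenitors of P12b while primary progenitors hold 253 CPM.

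The direct comparisons with the most similar types describe the annotation, since the types were named from the genes of the same cells. Against late-stage primary RPCs, 2140 of 9366 rows (22.8%) were called, 913 higher in N. RPCs (9.75%) and 1227 lower (13.1%). Row 25861, a photoreceptor precursor row, was at 919, 983, 1592, 1337, 362, 1709 and 1833 CPM in N. RPCs of P1a, P1b, P4, P8a, P8b, P12a and P12b, and at 51.0 to 160 CPM in primary RPCs. Early-stage N. RPCs held it at 835 to 944 CPM and the postnatal precursors at only 184 to 460 CPM. Row 21503 averaged 59.5 ± 30.7 CPM against 4.44 ± 7.33 CPM (SD, n = 7). Rows 32716 and 13365, both early-stage primary RPC rows, averaged 11.5 and 31.4 CPM in N. RPCs against 115 and 188 CPM in primary RPCs, and row 13365 reached 2543 CPM in Müller glia. Of the photoreceptor precursor rows 33 of 49 were higher and 3 lower (median 1.05), and of the Müller glia rows 29 of 36 were lower and 1 higher (median -1.80), beside a median of -0.02 over all rows.

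Against photoreceptor precursors, 1739 of 9641 rows (18%) were called, 777 higher in N. RPCs (8.06%) and 962 lower (9.98%). The early-stage N. RPC rows were higher in 33 of 50 and lower in 0 (median 0.72), and the cone rows higher in 0 and lower in 29 of 42 (median -2.30). Bipolar rows were lower in N. RPCs in 26 of 42 and higher in 1 (median -1.26), beside a median of 0.02 over all rows. Row 8840, an early-stage N. RPC row, averaged 222 ± 101 CPM in N. RPCs and 34.3 ± 14.0 CPM in precursors (SD, n = 7), and row 31833 averaged 77.0 ± 17.8 and 9.34 ± 8.09 CPM. Rows 25674 and 30961 averaged 2.49 and 3.68 CPM in N. RPCs, 59.6 and 128 CPM in precursors and reached 393 and 344 CPM in cones.

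Early-stage N. RPCs persisted in P1a (81 cells), P1b (66 cells) and P4 (50 cells), where both stages shared a library. Of 6838 rows, 272 (3.98%) were called, 187 higher in late-stage N. RPCs (2.73%) and 85 lower (1.24%). The count was 59 with DESeq2 (24 higher and 35 lower), 57 without P1a (25 and 32) and 83 without P4 (38 and 45), so the surplus of higher rows did not hold under these settings. Of the horizontal cell rows, 14 of 35 were lower in late-stage N. RPCs and none higher (median -0.65, beside 0.00 over all rows), and their summed level was 2419, 2024 and 2313 CPM in late-stage against 6246, 3882 and 5117 CPM in early-stage N. RPCs of P1a, P1b and P4. This list is of limited selectivity (median ratio 2.29 to the next type), and amacrine cells of P1a held it at 11597 CPM against 14905 CPM in horizontal cells. Horizontal cells are among the first neurons that the retina forms. Rows 33052 and 21872, both horizontal cell rows, averaged 3.05 and 8.48 CPM in late-stage and 134 and 250 CPM in early-stage N. RPCs, and reached 146 and 63.6 CPM in amacrine cells. Row 15839 was higher in late-stage N. RPCs, with 66.6, 54.5 and 53.3 CPM against 3.41, 9.36 and 0 CPM, but not past the threshold without P1a (adjusted p = 0.0715 by edgeR). The early-stage N. RPCs held 3 UMIs of it. Other types held it as well, with 28.9 to 120 CPM in late-stage primary RPCs, 31.6 to 52.5 CPM in amacrine and 32.3 to 71.2 CPM in ganglion cells. Row 7145 was higher by 3.46 on the log2 scale, and by 1.73 without P1a.

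Cells were also compared one by one, each thinned to 1000 UMIs, with the mean profile of each type. A profile was the mean over the other libraries with at least 20 cells of the type. The early-stage N. RPC profile therefore held no library after P4, since P8a had 4 such cells and the later libraries had no more. Of the 1447 late-stage N. RPCs with that depth, out of 1462, 48.8% fitted the late-stage N. RPC profile best, 24.5% the early-stage N. RPC profile and 12.3% the late-stage primary RPC profile. The libraries differed: only 19.6% of cells in P1a and 13.3% in P1b fitted their own type best, where 56.7% and 65% fitted the early-stage N. RPC best, while 77.5% in P8a fitted their own. At P1 this measure thus went against the label for most cells. With the late-stage N. RPC profile set aside, the best-fitting type was an early-stage N. RPC for 64.9% of cells in P1a, 68.5% in P1b, 29.4% in P4, 4.50% in P8a, 3.03% in P8b, 1.60% in P12a, 8.55% in P12b and 0% in P17. This share fell with age (rho = -0.88, exact permutation p = 0.00595, adjusted p = 0.0208; r = -0.86, exact permutation p = 0.00179, adjusted p = 0.00625; n = 8, two-sided; r = -0.87 without P17 and P1a). Because the early-stage N. RPC profile held no library after P4, library age and type cannot be told apart in this fall. With profiles from postnatal libraries alone, the best-fitting type was a late-stage primary RPC for 53.5% of cells in P1a and 62.1% in P1b.

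With the own profile set aside, a bipolar cell fitted best for 60% of cells in P12a, 17.1% in P12b and 46.8% in P17, 11.4% in P8a, and at most 0.408% in P1a, P1b, P4 and P8b. The relation to age passed for Pearson's r (0.79, exact permutation p = 0.0159, adjusted p = 0.037) and not for rho (0.77, exact permutation p = 0.0321, adjusted p = 0.075; n = 8, two-sided), and r was 0.69 without P17 and P1a. Of the 8 libraries, only those from P8 on held enough bipolar cells to enter the bipolar profile. Library age and type cannot be told apart in this relation either. The libraries of P12 differed: a photoreceptor precursor fitted best for 69.2% of cells in P12b and 16.0% in P12a. Neither a cone nor a rod did so for any cell.

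**Figure D5:**
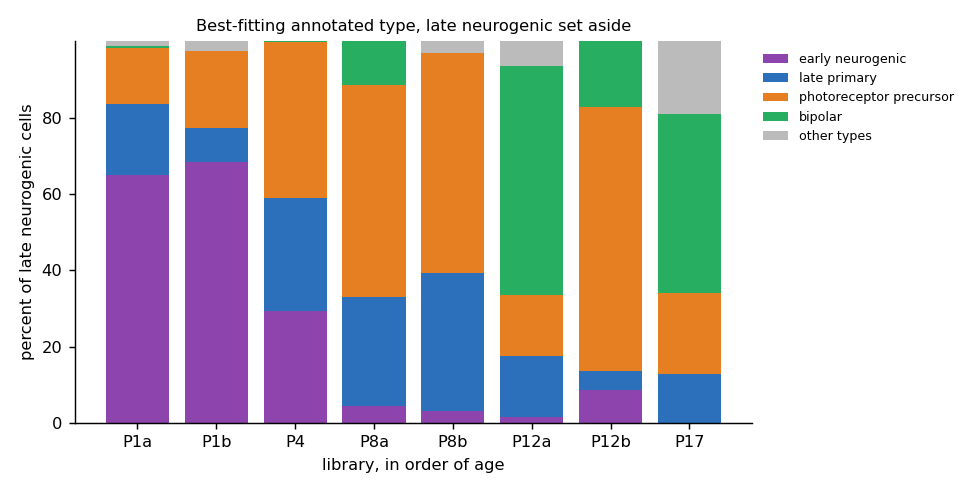
Percent of late neurogenic progenitors by the annotated type whose mean profile fits best when the late neurogenic profile is set aside, for each library in order of age; the segments of a bar add up to all cells with at least 1000 UMIs. Early neurogenic progenitors lead at P1, and bipolar cells reach 60% in P12a and 46.8% in P17 but 17.1% in P12b.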

How the data were processed

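Retinas were profiled with 10x Chromium 3′ v3.1 chemistry. The authors processed reads with Cell Ranger 3.1.0 on the HiC_Itri_2 assembly, joined libraries, analysed them in Seurat 4.0.4 and named cell types per cluster from marker genes. Cell filters, doublet removal and which libraries came from fixed cells are not stated. The deposited values are raw UMI counts per gene row and cell, with a cell table by the authors whose 3 embedding columns were not used. All deposited cells were kept and no doublet caller was run. Of 2000 cells, 89.2% lay nearest their own annotated type, a check that the cell table follows the matrix.

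UMI counts were summed per library and type (at least 10 cells) and tested with edgeR 4.0.16 in R 4.3.3 (filterByExpr, TMM, glmQLFit, glmQLFTest; the library as a block between types), with DESeq2 1.42.0 as an alternative. SE is the log2 fold change divided by the square root of F. CPM of single rows in a comparison are TMM-scaled; levels of lists, and ranges in other types, are not. List rows needed 100 CPM in their type and were ranked by the ratio to the highest other type, with 1 CPM added. For the early-stage N. RPC and photoreceptor precursor lists, late-stage N. RPCs and late-stage primary RPCs were not among the other types. Rows named are the 2 highest and 2 lowest by log2 fold change with adjusted p below 0.05, at least 50 CPM in the higher group and groups that do not overlap (between types, the same direction in every library). On simulated data with the fitted dispersions, 71.9% of 4-fold and 17.3% of 2-fold changes were recovered for the comparison with age (7868 rows), and 62.4% and 24.2% for the interaction (8615 rows). The members, lists and tests were chosen with earlier results of these data known.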

Additional observations from a re-analysis of the deposited data

Results flagged for a closer look

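The change with age differed between late-stage N. RPCs and late-stage primary RPCs for 142 rows by edgeR's test of the interaction. The named rows among them had differences of log2 changes of 3.95 (row 6326), 3.83 (row 18972), -4.50 (row 4972) and -4.36 (row 34098). These fitted differences depend on few UMIs where a sum is at or near 0. No group held 4 to 10 libraries of 1 time point, so no library was tested as an outlier within a group.

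Cells with the same label also occur before birth, in libraries that entered no test; those with enough cells entered the mean profiles, and the embryonic libraries gave row lists. There were 37 such cells of 3894 in E26a (0.95%, 95% Wilson interval 0.69% to 1.31%), above the 0.077% that a count of 0 allows, and 0 of 2148 in E26b. E21a held 6 of 1841 (0.326%, 0.149% to 0.709%), above its limit of 0.163%, and E21b 0 of 1566.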

How the results depend on the processing

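The share of N. RPCs among late-stage progenitors kept its direction and side of the threshold in all 10 alternatives (rho 0.97 to 1). The share among all cells passed the unadjusted test with photoreceptor precursors left out of the denominator (rho -0.76, exact permutation p = 0.0361); without single libraries rho was -0.76 to -0.50. The UMI ratio passed with means (-0.18). The share of cells that fitted a late-stage primary RPC best with their own type set aside passed with postnatal profiles (rho -0.87).

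Rows called with age were 284 without P1, 161 with every sum thinned to the smallest (1948 rows tested) and 498 to 862 without single libraries. Against primary RPCs they were 1271 without P1 and 350 without the library block, and against precursors 446 without the block. Late- against early-stage calls were 59 with DESeq2 and 57 to 317 without single libraries. Interaction calls were 52 with DESeq2, 94 without cells of high UMI count, 34 without P1 and 42 to 337 without single libraries. Fewer rows or libraries enter most of these settings; for DESeq2 and the block the cause was not tested. No row called in a comparison changed sign in any alternative in which it was still tested. Of the 820 rows called with age, 531 were not tested after thinning. Without the block, 475 of 2140 rows called against primary RPCs and 431 of 1739 called against precursors were not tested.

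Mean log2 ratios of list levels to primary RPCs moved with list size: with 20 rows to 0.91 (bipolar), 0.16 (rod), -1.05 (early-stage primary RPC) and 0.62 (horizontal), and with 100 rows to 0.97, -0.36, -0.37 and 0.26, to 0.19 (ganglion) and to 0.88 (precursor). Without row 20600 the bipolar ratio was 0.89. For cone rows the ratio was 0.21 with 50 rows, 0.26 with 20 and 0.38 with 100. Of 250 values for named rows, 244 kept their side of the threshold and 6 lost it.

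Cell types were paired within libraries, as described above. Between time points, no paired analysis was possible because the suffixes of the cell names do not carry the replicate numbers of the labels. Depth limits P8b (33 cells) and P17 (51 cells) most.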
